A study of Homo sapiens with 4 samples.

Results

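The genes described here encode the Ragulator scaffold and its partners in the mTORC1 pathway, and the question asked of them was which of their mRNAs carried an N7-methylguanosine (m7G) peak in U2OS cells. They are the 10 listed genes LAMTOR1, LAMTOR2 and LAMTOR4 (Ragulator), RRAGA and RRAGC (Rag GTPases), MTOR and RPTOR (mTORC1), RHEB, and TSC1 and TSC2 (the TSC complex), out of 20056 annotated protein-coding genes. A gene was counted as having a peak if a row of a deposited peak table carried its name. The study compared 2 anti-m7G immunoprecipitated (IP) libraries with 2 input libraries, all made from poly(A) RNA of U2OS cells that received no treatment. U2OS is an established human osteosarcoma line, and no second genotype, treatment or time was used. The values are those of 2 peak tables, 1 for each IP replicate, which list for each peak where it lies, how many fold the IP signal exceeded input, and its p-value with the false discovery rate, all computed by the authors. The tables hold no read counts, so the depth behind a peak is unknown.

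m7G is a methylated guanine best known as the cap at the 5′ end of mRNA, and it also occurs at internal sites. Ragulator is a complex on the lysosomal membrane that holds the Rag GTPases there. When amino acids are plentiful, the Rag GTPases bring mTORC1, a kinase complex that promotes growth and protein synthesis, to the lysosome, where the small GTPase RHEB activates it. The TSC complex acts on RHEB as a GTPase-activating protein and so holds mTORC1 back.

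Peaks were found on 3 of the 10 genes in replicate 1 and on 5 of the 10 in replicate 2. Across all protein-coding genes the shares with a peak were 15.9% and 17.4% in replicates 1 and 2. LAMTOR1, RRAGC and TSC1 had peaks in both tables, LAMTOR4 and RHEB in replicate 2 only, and LAMTOR2, RRAGA, MTOR, RPTOR and TSC2 had no peak in either. Peaks of the same gene in both tables were called shared where they had at least 1 bp in common on 1 strand. All 3 genes with peaks in both tables had shared ones (30% of the 10 genes, against 10.5% of all protein-coding genes), and LAMTOR1 had 2, which makes 4 shared peaks in all. With 10 genes chosen with earlier results known, these shares are a description and no test was made. The tables do not measure expression, so a missing peak does not separate little mRNA from little m7G.

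**Figure D1:**
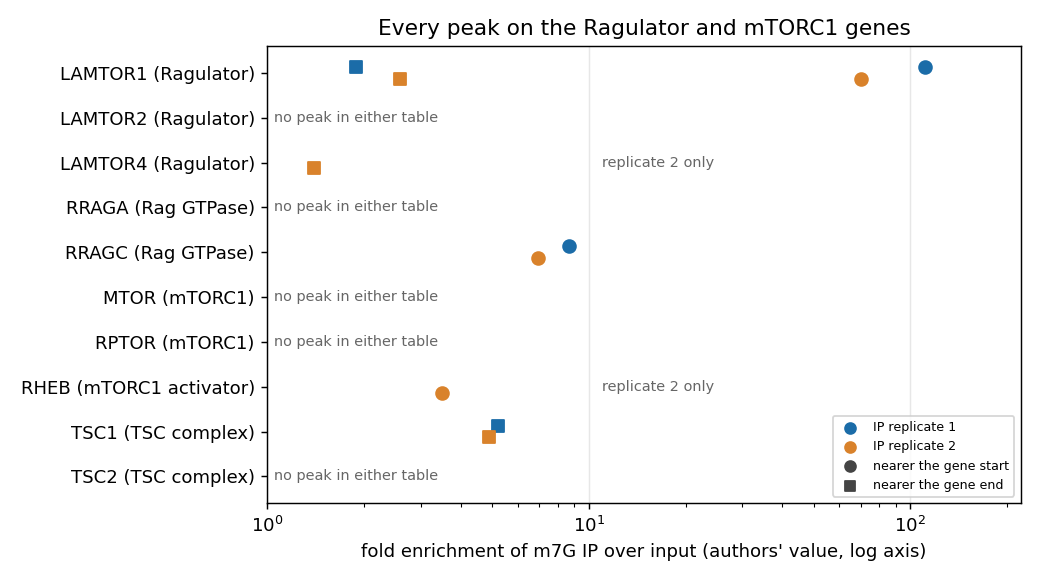
Fold enrichment of m7G IP over input (log axis) of every peak on the 10 genes, by IP replicate; circles lie nearer the gene start and squares nearer the gene end. LAMTOR1 has 1 pair of points at 111 and 70 and another at 1.89 and 2.59, while all other points lie between 1.40 and 8.64.

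LAMTOR1 encodes the lipid-anchored subunit that fixes Ragulator to the lysosomal membrane. Its strongest peak lay at the gene start and is printed because it is the highest of the pathway and because its place relative to the annotated start can be read from it. It covered the same 119 bases in both replicates, chr11:72103269-72103387 on the minus strand of GRCh38, shown 5′ to 3′ from the RefSeq promoter table of GRCh38.p14, with the bases inside the annotated gene in capitals.
LAMTOR1: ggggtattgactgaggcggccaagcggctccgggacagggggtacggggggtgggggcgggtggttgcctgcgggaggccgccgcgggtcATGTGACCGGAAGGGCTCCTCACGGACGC

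Of the 119 bases, 90 (75.6%) lay before the annotated LAMTOR1 start and 29 after it. The transcript models behind the authors' peaks are not named in the labels or headers. Identical boundaries in both replicates were found for 270 of the 2648 shared peaks (10.2%). Of 1565 shared peaks listed as a single block in both tables, 129 covered the annotated start of their gene in both, and 17 of those had most of their bases before it, LAMTOR1 among them. The stretch had a GC content of 73.9%, and the same stretch of 22199 promoter windows of protein-coding genes had a median of 64.7% (interquartile range 54.6 to 73.1%). A motif of the form GANGAN, where N is any base, did not occur on the transcript strand and occurred once on the other strand. It was present on the transcript strand of 34.6% of those windows and on either strand of 58.0%.

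The fold of the LAMTOR1 gene-start peak was 111 in replicate 1 and 70 in replicate 2. In replicate 1 it shared rank 3 of 4326 with 2 other peaks of the same fold, and in replicate 2 it shared rank 8 of 4862 with 7 others. By significance the same peak stood much lower, at rank 1542 in replicate 1 (log10 p of -7.08, where the median peak had -5.67) and rank 2118 in replicate 2 (-6.54, where the median had -5.92). The replicates differed by 0.67 on the log2 scale, a factor of 1.59. Over all 2648 shared peaks, replicates differed by a median of 0.30 (log2, or 1.23 times), and 95% by less than 1.28 (2.42 times). The LAMTOR1 replicates were therefore farther apart than most, within the range that 95% of shared peaks kept.

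Both LAMTOR1 folds were whole multiples of a step value, the most frequent fold among peaks of 10 or more in each table. The step was 18.5 in replicate 1, of which 111 is 6 times, and 10 in replicate 2, of which 70 is 7 times. Multiples, to within 0.05 (0.5 for folds of 100 or more), made up 53.0% of the folds at or above the step in replicate 1 and 29.1% in replicate 2. Peaks with the same fold and the same log10 p as LAMTOR1 were present elsewhere, 1 in replicate 1 (RNF121) and 3 in replicate 2 (CYP24A1, POLR2E and SRF), genes named after their values had been seen. In replicate 1, 46 of the 52 peaks with a fold of 50 or more were such multiples. Of the 52, 24 overlapped a replicate 2 peak, against 62.6% of all replicate 1 peaks. In replicate 2, 38 of 43 were such multiples. Of the 43, 29 overlapped a replicate 1 peak, against 55.9% of all replicate 2 peaks. Shared peaks at such values in both tables numbered 21, with a median difference between replicates of 0.92 on the log2 scale, against 0.67 for LAMTOR1. The authors' tables do not give the counts behind these steps, and their part in the height of the LAMTOR1 fold was not tested.

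**Figure D2:**
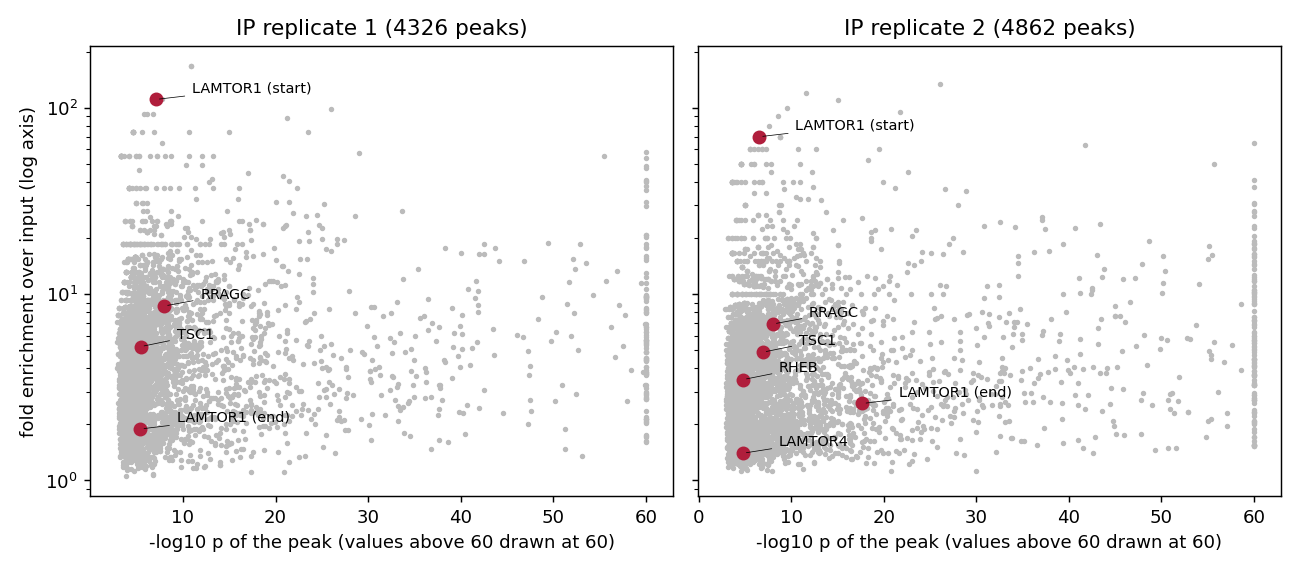
Fold enrichment over input (log axis) against -log10 p for all peaks of each replicate (grey) and the peaks on the 10 genes (red), with -log10 p above 60 drawn at 60. The LAMTOR1 gene-start peak is near the top of each panel at a -log10 p that many peaks exceed, and in replicate 2 the LAMTOR1 gene-end peak lies far to its right at a low fold.

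A second LAMTOR1 peak lay near the gene end, on the minus strand of chromosome 11, from 72097469 to 72097587 in replicate 1 and from 72097410 to 72097675 in replicate 2. Its fold was 1.89 in replicate 1 and 2.59 in replicate 2, a difference of 0.45 on the log2 scale. The replicates thus differed in the opposite direction from those at the gene start. Its midpoint was 236 and 250 nt from the annotated gene end. It was longer in replicate 2 (266 nt) than in replicate 1 (119 nt), and more significant there (log10 p of -17.7 and -5.42 in replicates 2 and 1).

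The peaks at the start and the end of LAMTOR1 thus differed in fold by 58.7 times in replicate 1 and 27.0 times in replicate 2. Among the 418 protein-coding genes with at least 2 shared peaks, the ratio of the strongest to the weakest, from the geometric mean of both replicates, was highest in LAMTOR1. The ratio was 39.8 in LAMTOR1, and its median over the 418 genes was 1.72. For LAMTOR1 it rests on the gene-start folds, which were whole multiples of the steps, and their part in the ratio was not tested. LAMTOR1 was also chosen with earlier results known. SNX8, which encodes a sorting nexin, came next (4.99 on the log2 scale, against 5.32 for LAMTOR1). The annotated span of LRTOMT covers both LAMTOR1 peaks. LRTOMT is on the plus strand in the RefSeq promoter table, and both peaks were listed on the minus strand, the strand of LAMTOR1. Whether the listed strand came from the reads or from the annotation of the named gene was not examined. The strand alone therefore does not assign the signal to LAMTOR1.

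The 5 genes whose shared peaks were nearest to the LAMTOR1 gene-start peak in the plane of both log2 folds were SYNCRIP, INS, NUS1, SNX8 and CHD3, at distances of 0.55, 0.62, 0.63, 0.67 and 0.94. SYNCRIP encodes an RNA-binding protein, INS insulin, NUS1 a protein needed for dolichol synthesis, and CHD3 a chromatin remodeller. This likeness rests on 2 libraries. INS (167 and 80) and NUS1 (167 and 60) had folds at whole multiples of the steps in replicates 1 and 2, as LAMTOR1 did. SNX8 had such a fold in replicate 2 only (110). What part the steps had in the likeness was not tested. The peaks lay at unlike places, with that of NUS1 having its midpoint 89 nt from the annotated start in both replicates and that of INS lying 116 nt from the gene end. All 5 were more significant than LAMTOR1 in replicate 1, with log10 p from -10.9 to -92.4. In replicate 2, 4 of the 5 were, and NUS1 had -5.54 against -6.54 for LAMTOR1.

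LAMTOR4, another small subunit of Ragulator, had 1 peak, in replicate 2, with a fold of 1.40 and log10 p of -4.77. The peak, on the plus strand of chromosome 7 between 100153916 and 100154035, was centred 228 nt before the annotated gene end. Only 3.89% of replicate 2 peaks had a lower fold. When replicate 2 peaks were ranked by significance and cut into 5 equal classes, LAMTOR4 fell in class 4, of which 33.2% overlapped a replicate 1 peak. No peak was listed for LAMTOR2, which encodes the subunit that pairs with LAMTOR3 in the Ragulator core.

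RRAGC encodes RagC, which works in a heterodimer with RagA or RagB. Its peak lay just inside the gene start, on chromosome 1, minus strand, from 38859524 to 38859614 in replicate 1 and to 38859674 in replicate 2. The fold was 8.64 in replicate 1 and 6.92 in replicate 2, higher than 81.4% and 82.1% of the peaks of each table. The replicates differed by 0.32 on the log2 scale, close to the median difference of all shared peaks. The midpoint lay 203 and 173 nt after the annotated start, and the whole peak lay between 98 and 248 nt after it. The level of significance was alike in both tables, with log10 p of -7.98 and -8.02.

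RRAGA, which encodes the partner RagA, had no peak under its name and no peak of any name in its span of 1599 nt. Of the remaining Rag genes, RRAGD, which encodes RagD, the close paralog of RagC, had a shared peak and RRAGB, the paralog of RagA, had none. The RRAGD fold was 4.92 in replicate 1 and 5.48 in replicate 2. Its peak also began shortly after the annotated start, at 176 nt in both replicates, with midpoints at 311 and 296 nt. Both genes of the RagC and RagD pair thus had a shared peak near the start and neither gene of the RagA and RagB pair did, a difference among 4 genes that was not tested.

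**Figure D3:**
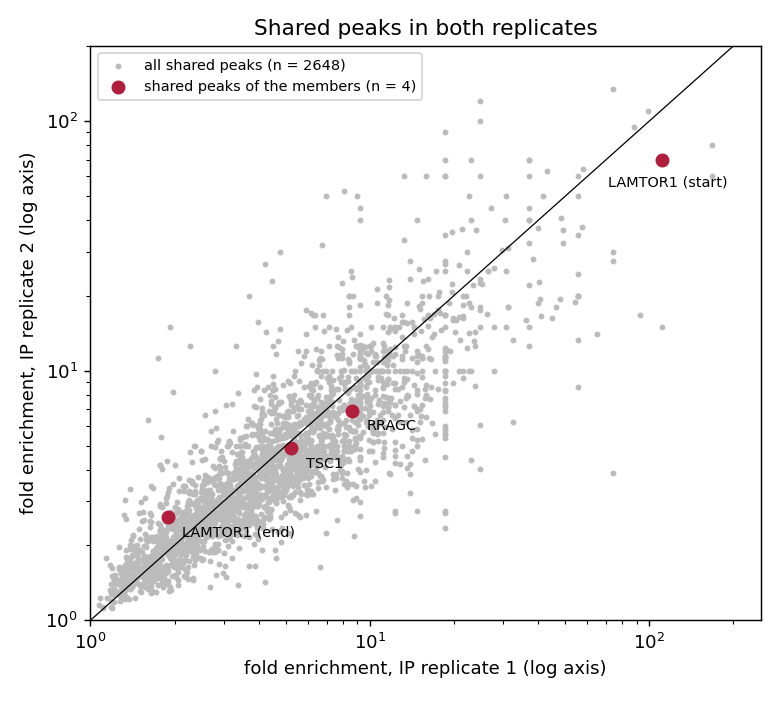
Fold enrichment in IP replicate 1 (x, log axis) and IP replicate 2 (y, log axis) of all 2648 shared peaks (grey) and the 4 shared peaks of the 10 genes (red), with the line of equal folds. RRAGC and TSC1 lie close to the line and inside the main cloud, and the LAMTOR1 gene-start peak lies among the few shared peaks at the upper right.

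MTOR, the kinase of mTORC1, and RPTOR, which encodes the substrate-recruiting subunit raptor, had no peak in either table. They have the longest spans of the 10 genes, 156017 and 421531 nt. No peak of any name fell within either span.

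RHEB had a peak in replicate 2 only, with a fold of 3.48, equal to the median of that table, and log10 p of -4.79. It lay on chromosome 7 from 151519509 to 151519628, minus strand, with its midpoint 327 nt after the annotated gene start. Its significance put it in the same class as the LAMTOR4 peak. A peak missing from replicate 1 is one that did not pass the authors' threshold there. The fold below that threshold is not listed, so no difference between replicates can be given for RHEB or LAMTOR4.

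TSC1 encodes hamartin, the subunit that stabilises the TSC complex. It had 1 shared peak, on chromosome 9, minus strand, from 132892933 to 132893083 in replicate 1 and from 132892963 to 132893113 in replicate 2. The fold was 5.23 in replicate 1 and 4.88 in replicate 2, the closest agreement of the 4 shared peaks at 0.10 on the log2 scale. It lay toward the gene end, with midpoints 1659 and 1689 nt from it. TSC2, which encodes tuberin, the subunit with the GTPase-activating domain, had no peak in either table.

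All 10 peak entries on these genes, 4 in replicate 1 and 6 in replicate 2, were single blocks, and all had their midpoints within the first or last 5% of the gene span or just before the start. Over all peaks matched to a gene, that was the case for 50.9% in replicate 1 and 47.0% in replicate 2. The 10 entries come from 5 genes and 6 places, and this feature was noticed after the positions had been seen. LAMTOR1, RRAGC and RHEB had peaks at the start, and LAMTOR1, LAMTOR4 and TSC1 toward the end. Positions are genomic, and whether a peak lies in an exon, intron or untranslated region was not analysed here.

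**Figure D4:**
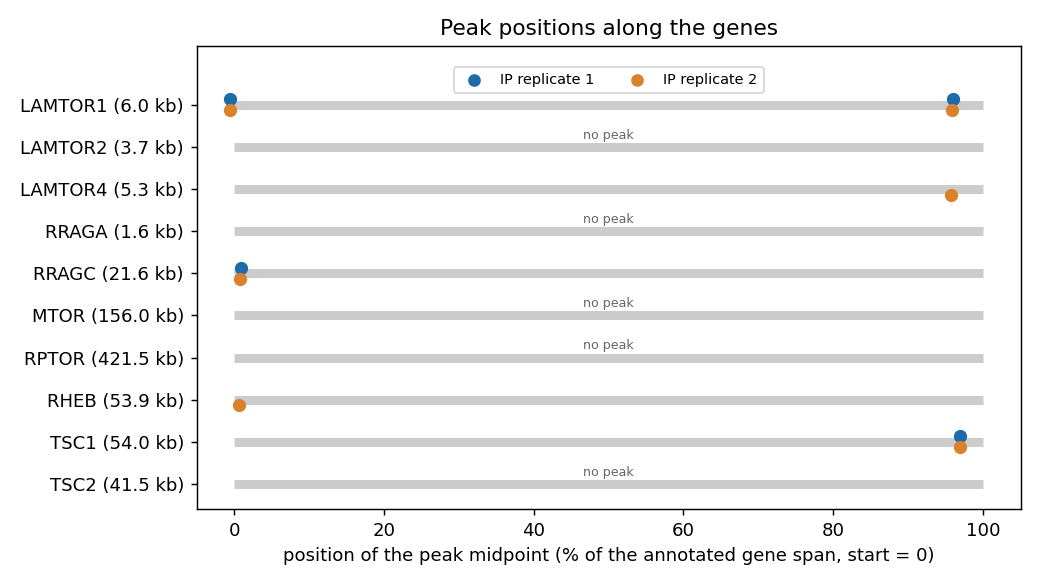
Midpoints of all peaks on the 10 genes as a percentage of the annotated gene span, from the start at 0 to the end at 100, by IP replicate. All points lie within 5% of either end of the span, and 5 genes have no point.

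The wider pathway was described with 88 further genes in 7 lists. Shared peaks were found on 13 of them (14.8%), against 10.5% of all protein-coding genes. They were most frequent among downstream substrates (5 of 18) and genes upstream of TSC and RHEB (4 of 17). The lists of GATOR1, GATOR2 and KICSTOR had 2 of 12, mTOR complex subunits and assembly factors 1 of 10, and Ragulator and Rag genes 1 of 5. Amino acid sensors and Rag regulators had 0 of 10, and the lysosomal V-ATPase, the proton pump that Ragulator binds, 0 of 16. In these 2 lists, CASTOR2 had a peak in each table but at different places, ATP6V0B had 1 peak in replicate 1 and ATP6V0A2 had 2 in replicate 2.

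Upstream of TSC, STK11, which encodes the kinase LKB1 that activates AMPK, had a fold of 10.6 in replicate 1 and 18.7 in replicate 2. AKT1 and AKT2, kinases that inhibit the TSC complex, had 5.01 and 3.83, and 3.93 and 3. The peaks of STK11, AKT1 and AKT2 had their midpoints within 500 nt of the annotated gene start in both replicates.

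Among the complexes that regulate the Rag GTPases, WDR59, a subunit of GATOR2, had a fold of 18.5 in replicate 1 and 8.26 in replicate 2. The difference of 1.16 on the log2 scale was the largest of the pathway's shared peaks, and the replicate 1 value is itself 1 such step of that table. Outside these complexes, MAPKAP1, which encodes a subunit of mTORC2, had 4.73 and 5.56 at 123 nt after its annotated start.

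Downstream, ULK1, the autophagy-initiating kinase that mTORC1 inhibits, had folds of 5.89 and 5.42 at a peak near the gene start. TFE3, a transcription factor that mTORC1 keeps in the cytoplasm, had 3.34 and 4.62. LARP1, which binds the 5′ ends of mRNAs for the translation machinery, had 3 shared peaks, with 5.00 and 3.33 at the strongest. MAF1, a repressor of RNA polymerase III, had 2, with 5.29 and 3.48 at the stronger. EIF4B, a cofactor of the helicase that opens the mRNA cap region, also had 2, with 1.68 and 3.39 at the stronger, a difference of 1.01 on the log2 scale.

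The strongest shared peak of each gene gave a median geometric mean fold of 7.73 for the 3 genes LAMTOR1, RRAGC and TSC1. The median was 5.13 for the 13 other pathway genes and 4.60 for all 2099 protein-coding genes with a shared peak. The median of the 3 genes is the value of RRAGC alone. TSC1, at 5.05, was below the median of the 13, and these differences were not tested. Only LAMTOR1 stood above the range of the other pathway genes, which ran from 2.39 to 14.1. Midpoints within 500 nt of the annotated start in both replicates were seen for 2 of the 4 shared peaks of the 10 genes, 9 of the 17 shared peaks of the other pathway genes and 34.4% of all shared peaks.

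**Figure D5:**
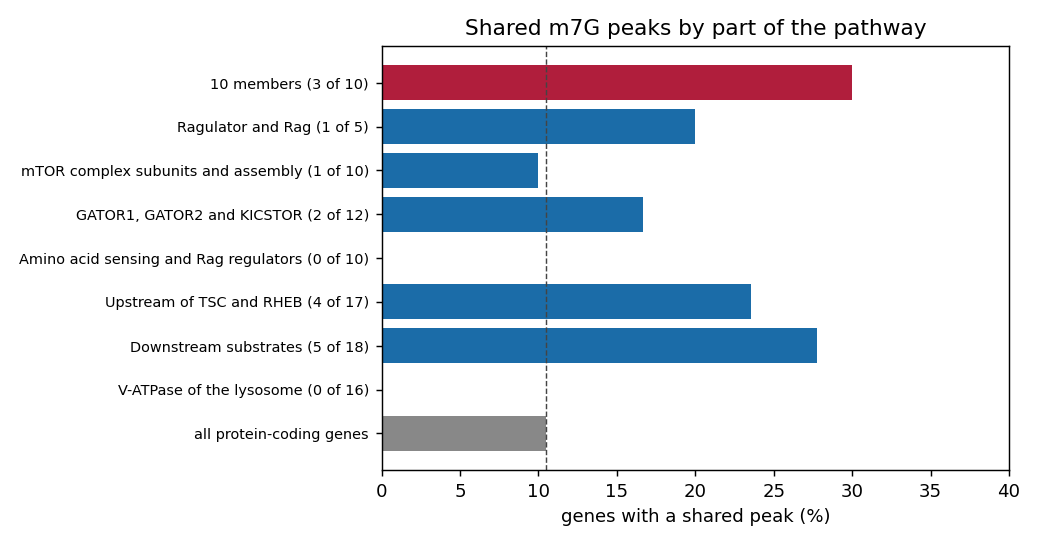
Percentage of genes with a shared m7G peak among the 10 genes (red), each pathway list (blue) and all protein-coding genes (grey, also the dashed line). The 10 genes reach 30%, the lists lie between 0 and 27.8%, and all protein-coding genes are at 10.5%.

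In the series as a whole, 62.6% of replicate 1 peaks overlapped a replicate 2 peak and 55.9% of replicate 2 peaks overlapped a replicate 1 peak. Separate cultures are not mentioned in the labels, so the spread between replicates may be technical. Of 9 markers of mesenchymal and bone cells, 4 had a shared peak (COL1A1, VIM, SPARC and FN1). COL1A2, RUNX2, ALPL, SP7 and BGLAP had none. Of 11 markers of blood, epithelium, liver and neurons, 1 had a shared peak (KRT18). Among all protein-coding genes, 10.5% had a shared peak. Peaks do not measure expression, so these counts do not identify the cell type.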

How the data were processed

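Poly(A) RNA from U2OS cells was pulled down with antibody to m7G and sequenced beside input, per the labels' protocols. STAR and GRCh38 are named, without a version, per the submitters' processing notes, and no peak caller is named in the sources used here. Per the file headers, each deposited peak has a p-value, its log10 and that of a false discovery rate (both treated here as a score), and a fold enrichment over input, a linear ratio. The weakest log10 false discovery rates were -1.31 and -1.32.

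Peaks were matched to RefSeq genes of GRCh38.p14 by name within 2000 nt (99.9% and 99.8% of peaks). Mutually best overlaps of at least 1 bp on the same strand, with the same gene, were shared peaks. Ties put 5 peaks of replicate 1 and 4 of replicate 2 in more than 1 of the 2648 pairs, none of them on a gene of the pathway. Distances run from peak midpoints to annotated gene ends. Coordinates are 1-based. The pairing was tried on simulated data made from replicate 1 peaks of a single block. Some were moved slightly and the others off the chromosome. Peaks of several blocks were not tried, so errors of pairing in the real tables were not measured. No test over samples was made, because the tables list only peaks past the authors' threshold and give no counts, so shares are set beside those of all protein-coding genes. The genes and lists were chosen with earlier results of these data known. The text names all 10 genes, the pathway genes with a shared peak (except some that are counted but not reported here by name) and the 5 genes nearest to LAMTOR1 in fold and any gene whose span covers a peak of the 10 genes, and other genes were chosen after their values were seen. BMT2 was matched through its current symbol, SAMTOR. Sequence was used only where a RefSeq promoter window (250 bases before and 50 after the start) held the whole peak. Alternatives were stricter overlap, nearby midpoints, more significant or stronger peaks, and each replicate left out. Software was Python 3.11.15, numpy 2.4.6, pandas 2.3.3 and matplotlib 3.10.9.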

Additional observations from a re-analysis of the deposited data

How the results depend on the processing

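LAMTOR1, RRAGC and TSC1 kept a shared peak with 50% reciprocal overlap (8.67% of all protein-coding genes had one), with midpoints within 100 nt (9.45%) and with both folds at 4 or more (5.16%). In the more significant 50% of each table TSC1 lost it, which left 2 of 10 (6.29% of all genes). Counts of the 10 genes ranged from 3 (without replicate 2, 15.9% of all genes) to 5 (without replicate 1, 17.4%) when all peaks of a single replicate were taken. In replicate 2, 3 of 10 were left in place of 5 in the more significant 50% of the table (9.42% of all genes), and likewise 3 with a fold of at least 4 (8.89%), since LAMTOR4 and RHEB dropped out. An alternative chosen after seeing the data, any peak on the gene's strand within its span whatever its name, gave the same 3 and 5. For the other pathway genes, 13 of 88 became 7 with both folds at 4 or more (5.16% of all genes, against 10.5%), and from 18 (without replicate 2) to 25 (without replicate 1) with single replicates (15.9% and 17.4% of all genes). Shared folds with each replicate left out ranged from 70 to 111 for LAMTOR1 at the gene start, 1.89 to 2.59 at its end, 6.92 to 8.64 for RRAGC and 4.88 to 5.23 for TSC1. Measured from the nearest edge of the peak, distances to the start were 0 for LAMTOR1 (midpoint -31), 5666 for its second peak (5762), 128 for RRAGC (188) and 52280 for TSC1 (52355), in nt and as means of both replicates. No paired analysis was possible because no result here comes from a test, and the tables give folds without separate input values to pair. Depth is unknown, so a gene without a listed peak cannot be called free of m7G.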

Other observations

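Several genes of the pathway had peaks in 1 replicate only, or in both replicates at different places, none of which enters the counts of shared peaks. PRR5, which encodes a subunit of mTORC2, had a replicate 2 peak with a fold of 40, which is 4 times the step of 10 in that table, and all of its 120 bases lay before the annotated gene start. RPS6, which encodes the ribosomal protein that S6 kinase phosphorylates, had 3 replicate 2 peaks with folds of 1.60, 1.45 and 1.14. EIF4EBP2, a translation repressor that mTORC1 phosphorylates, had 1 with a fold of 4 whose midpoint lay 109 nt after the start. TFEB, a close relative of TFE3, had 1 with a fold of 4 toward the gene end. AKT1S1, which encodes the mTORC1 inhibitor PRAS40, had 2 peaks in replicate 1 (2.91 and 1.68) and 1 in replicate 2 (2.70), none at the same place.

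The letters CACGTG, a core element bound by TFEB and TFE3 among other factors and the same on both strands, were present in a promoter window of 4 of the 9 listed genes with one in the RefSeq table (LAMTOR1, LAMTOR4, RRAGC and TSC2). Windows of 10.9% of 15843 protein-coding genes held them. These letters are a description of the DNA, with no measurement of binding. Of the 4 genes 2 had a shared m7G peak, against 3 of all 10 listed genes and 10.5% of all protein-coding genes. The search for CACGTG was not among the planned results, and neither its frequency nor a link to m7G was tested.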
